A study of Rattus norvegicus with 6 samples.

Results

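The let-7 family and its close relative miR-98 were followed in rat lung after ischemia reperfusion. Members were taken by name from the deposited table of small RNA reads. They are all rows called rno-let-7a, rno-let-7b, rno-let-7c, rno-let-7d, rno-let-7e, rno-let-7f, rno-let-7g, rno-let-7i or rno-miR-98, with every arm and copy. The rule uses names and no measured value, though earlier results of these data were known when it was set. These are 20 of the 693 listed names. A miRNA is cut from a hairpin whose left arm gives the 5p strand and whose right arm gives the 3p strand. Of the 20 members, 9 are 5p strands and 11 are 3p strands.

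The IR group was 3 male Sprague-Dawley rats of 7 to 8 weeks whose left lung hilum was clamped for 45 min and then released, so that blood flow returned. The sham group was 3 male Sprague-Dawley rats of the same age that had the chest opened but no clamp, and the labels also call them controls. Each lung gave 1 library, and samples of 1 group are described as biological replicates by the study. The length of the reperfusion and the lobe taken are not stated in the labels or the paper. The sequenced RNA came from a piece of lung with all its cell types, so fewer cells of a type and less RNA per cell cannot be told apart in any value below.

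let-7 was found in the worm Caenorhabditis elegans as a gene that drives the passage from larval to adult cell fates, and its sequence is kept across animals. In mammals the family is abundant in differentiated adult tissues, lung among them, where it represses mRNAs of growth genes such as Ras, Hmga2 and Lin28. Target choice rests mainly on bases 2 to 8 of the miRNA, the seed, which pair with the target. The protein Lin28 in turn binds let-7 precursors and blocks their cutting, so that the mature level can be set after transcription.

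The 9 5p strands are shown with the seed in capitals, because the shared seed is what makes them 1 family and the few other bases are what tells their reads apart. The sequences are RefSeq's for the rat build GRCr8, written 5′ to 3′.
rno-let-7a-5p: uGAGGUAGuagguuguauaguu
rno-let-7b-5p: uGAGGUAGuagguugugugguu
rno-let-7c-5p: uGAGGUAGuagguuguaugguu
rno-let-7d-5p: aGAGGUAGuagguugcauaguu
rno-let-7e-5p: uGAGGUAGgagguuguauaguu
rno-let-7f-5p: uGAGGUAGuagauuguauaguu
rno-let-7g-5p: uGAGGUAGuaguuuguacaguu
rno-let-7i-5p: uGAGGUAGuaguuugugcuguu
rno-miR-98-5p: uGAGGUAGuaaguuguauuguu

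All 9 are 22 nt long and carry the seed GAGGUAG. Of the 570 listed names with a RefSeq mature sequence, these 9 were the ones with that seed. Counted from 1 at the 5′ end and read as the base of rno-let-7a-5p, the position and the base of the other member, rno-let-7c-5p has A19G, rno-let-7e-5p has U9G and rno-let-7f-5p has G12A. rno-let-7b-5p has A17G and A19G, rno-let-7d-5p has U1A and U16C, rno-let-7g-5p has G12U and U18C, and rno-miR-98-5p has G11A and A19U. rno-let-7i-5p is the farthest from rno-let-7a-5p, with G12U, A17G, U18C and A19U. Over the 36 pairs of 5p members, 4 pairs differ at 1 base and 10 pairs at 2. The number of mismatches that the authors' counting allowed is not stated, so how far reads could pass between such neighbours is not known here.

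In the rat annotation the 5p members come from 12 genes, and rno-let-7a-5p, rno-let-7c-5p and rno-let-7f-5p each come from more than 1 gene, so that their reads cannot be assigned to a locus. Within 50 kb of the let-7e gene lie Mir99b and Mir125a. Mir100 and Mir125b1 lie as near to a let-7a gene, and Mir99a, Mir125b2 and Mir3588 to a let-7c gene. Others neighbour each other, such as the genes of let-7d, let-7a and let-7f, those of let-7b and let-7c, and those of let-7f and miR-98. The genes of let-7g and let-7i have no other miRNA gene within that distance, while genes on the opposite strand of some let-7 genes are taken up further on.

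The libraries held 6300841, 3775663 and 11248166 listed reads in IR and 7459979, 10718899 and 10302473 in sham. At these depths 3 reads are worth 0.267 to 0.795 CPM, that is, reads per 1000000 listed reads. Markers of lung endothelium and epithelium (miR-126a and the miR-200 family) were present in every library. By contrast, miR-122 of liver stayed at 0.63 to 9.51 normalized CPM, and the miRNAs of striated muscle at 42.8 to 74.4. The brain miRNAs miR-124 and miR-9a summed to 144 in IR replicate 2, the library with the fewest reads, and to 27.8 to 52.6 in the others. miR-21-5p, an abundant miRNA outside the family, took 24.2% of the reads of sham replicate 3, while the remaining 5 libraries gave it 9.66% to 13.5%, so sham replicate 3 stands apart in composition. Levels are given as normalized CPM, that is, CPM after TMM scaling, which corrects for such differences in composition. IR was set against sham with edgeR's quasi-likelihood test over the 418 miRNAs that passed a filter on low reads, and a member was called at a Benjamini-Hochberg adjusted p under 0.05. With no molecular identifiers, intervals from reads cover counting error only.

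The 5p strands of the family were a smaller part of the listed reads than miR-21-5p alone in every library. The 9 5p members together took 5.81%, 5.57% and 5.51% of the listed reads in the IR lungs and 6.36%, 5.76% and 5.75% in the sham lungs. Their summed level was 55298, 59915 and 52203 normalized CPM in the IR lungs, against 59749.7, 54757 and 66334 in the sham lungs. Sham replicate 3 was thus highest only after scaling, and its percent of listed reads was not. The groups overlapped, and the IR mean of 55805 ± 3881 was 0.926 times the sham mean of 60280.2 ± 5806 (SD, n = 3 each).

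By mean level the order was rno-let-7f-5p, rno-let-7i-5p, rno-let-7g-5p, rno-let-7c-5p, rno-let-7a-5p, rno-let-7b-5p, rno-let-7e-5p, rno-let-7d-5p and rno-miR-98-5p. All 5p members have the same length, and the order is one of reads, since how well each sequence was cloned was not measured. rno-let-7f-5p and rno-let-7i-5p ranked 11 and 12 among the 693 listed names, and rno-miR-98-5p ranked 180. The ranges over the 6 libraries overlapped between rno-let-7f-5p and rno-let-7i-5p, between rno-let-7g-5p, rno-let-7c-5p and rno-let-7a-5p as neighbours, and between rno-let-7e-5p and rno-let-7d-5p. They did not overlap at the steps to rno-let-7g-5p, to rno-let-7b-5p, to rno-let-7e-5p and to rno-miR-98-5p. Within single libraries each neighbour lay below the one before it in all 6, except that rno-let-7i-5p and rno-let-7d-5p did so in 5.

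**Figure D1:**
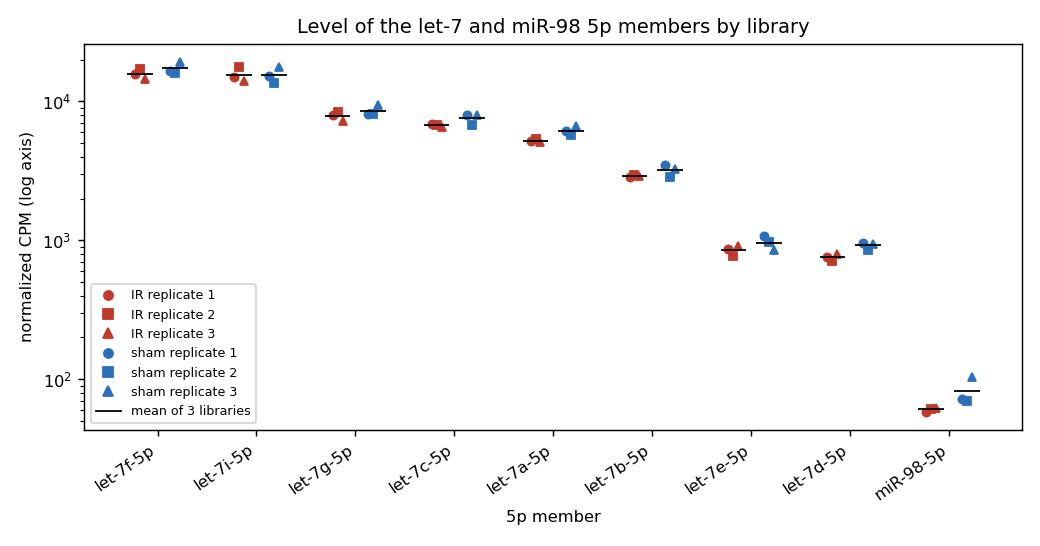
Level of each 5p member in normalized CPM (log axis), with IR libraries in red left of sham libraries in blue and a line at each mean of 3 libraries. Members run from rno-let-7f-5p, at 14608 to 19379 normalized CPM, to rno-miR-98-5p, at 58.1 to 103, and the red and blue points lie close together beside these steps.

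Whether reperfusion moved the family was asked with the fit over all tested miRNAs. None of the 9 5p members was called in edgeR's quasi-likelihood test, while 10.5% of all tested miRNAs were called. At an unadjusted p under 0.05 there were 0 of the 9, beside 26.3% of all tested miRNAs. Their adjusted p-values lay between 0.197 and 0.993. The log2 fold change was below zero in 8 of 9 (8 or 9 under every alternative), with a median of -0.17 (-0.11 without IR replicate 3) beside -0.0088 over all 418. The 95% intervals together spanned -0.91 to 0.36, which is 0.534-fold to 1.29-fold, so that a 2-fold change lay outside the interval of every 5p member, while each interval also included no change. All IR libraries lay below all sham libraries for 3 of the 9, a pattern that 16.7% of the tested miRNAs showed. Without sham replicate 3, the library that stands apart in its miR-21-5p share, 0 of the 9 were called, their median log2 fold change was -0.15 and the ratio of the summed level was 0.967.

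The most read member, rno-let-7f-5p, had 15691, 17125 and 14608 normalized CPM in the IR lungs, against 16531, 15898 and 19379 in the sham lungs. The groups overlapped, with the highest value in sham replicate 3. That library had the lowest TMM factor (0.8665), and a low factor raises every level of its library. Its means were 15808 ± 1263 in IR and 17269.5 ± 1854 in sham, a log2 fold change of -0.13 (SE 0.14, edgeR adjusted p = 0.583). rno-let-7i-5p, which has a gene of its own, had 14985, 17798 and 13988 normalized CPM in the IR lungs, against 15331, 13544 and 17741 in the sham lungs. IR replicate 2 and sham replicate 3, the libraries with the lowest TMM factors (0.9291 and 0.8665), were the highest and close to each other. The log2 fold change was 0.0048 (95% interval -0.35 to 0.36, edgeR adjusted p = 0.993). This sign is not stable, and DESeq2 gave -0.010.

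rno-let-7g-5p, also from a gene of its own, had 8021, 8356 and 7273 normalized CPM in the IR lungs, against 8138, 8139 and 9473 in the sham lungs. The groups overlapped, and the log2 fold change was -0.12 (SE 0.13, edgeR adjusted p = 0.576). rno-let-7c-5p had 6872, 6778 and 6521 normalized CPM in the IR lungs, against 8046, 6735 and 7933 in the sham lungs. Sham replicate 2 fell among the IR libraries here, and the log2 fold change was -0.17 (SE 0.12, edgeR adjusted p = 0.408).

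rno-let-7a-5p, the form taken as the family's reference sequence, had 5183, 5360.4 and 5134 normalized CPM in the IR lungs, against 6146, 5697 and 6663 in the sham lungs. Every IR lung was below every sham lung, and the IR values lay within a narrow band (5226 ± 119 in IR and 6168 ± 484 in sham, SD, n = 3 each). The log2 fold change of -0.24 (95% interval -0.51 to 0.032) did not pass the test (edgeR adjusted p = 0.247). rno-let-7b-5p had 2859.8, 2957 and 2909 normalized CPM in the IR lungs, against 3459.5, 2850.0 and 3243 in the sham lungs. Its groups overlapped through sham replicate 2, and the log2 fold change was -0.13 (SE 0.12, edgeR adjusted p = 0.531).

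rno-let-7e-5p and rno-let-7d-5p gave fewer reads than the members described so far. Their genes lie beside other miRNA genes, as do those of rno-let-7f-5p, the most read member. rno-let-7e-5p had 865, 769.6 and 913 normalized CPM in the IR lungs, against 1066, 972 and 856 in the sham lungs. It overlapped between groups, with sham replicate 3 the lowest of the sham libraries, and had a log2 fold change of -0.18 (SE 0.14, edgeR adjusted p = 0.43). rno-let-7d-5p had 764, 710.1 and 795 normalized CPM in the IR lungs, against 961, 852 and 942 in the sham lungs. All IR values were below all sham values, and its log2 fold change of -0.28 (95% interval -0.56 to 0.0047) had the lowest adjusted p of the 5p members, 0.197 from edgeR.

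rno-miR-98-5p, which carries the let-7 seed under another name, had the largest negative log2 fold change of the 5p members. Its level was 58.1, 61.6 and 62.2 normalized CPM in the IR lungs, against 72.7, 70.0 and 103 in the sham lungs. The groups did not overlap, and the IR libraries lay within a few CPM of each other (60.6 ± 2.20 in IR and 82.0 ± 18.5 in sham, SD, n = 3 each). The log2 fold change was -0.44 (SE 0.20, 95% interval -0.91 to 0.033, edgeR adjusted p = 0.226). The sham mean owes much to replicate 3, and without sham replicate 3 the log2 fold change was -0.25. In DESeq2 rno-miR-98-5p and rno-let-7d-5p had unadjusted p-values of 0.0379 and 0.0435, and their adjusted p-values were 0.158 and 0.175.

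The make-up of the family does not depend on how libraries are scaled against each other, so each 5p member was also taken as a share of the reads of all 9. rno-let-7i-5p made up 27.1%, 29.7% and 26.8% of these reads in the IR lungs, against 25.7%, 24.7% and 26.7% in the sham lungs. All IR shares were above all sham shares, by 2.15 percentage points on average, but IR replicate 3 and sham replicate 3 almost met, and without IR replicate 2 the difference was 1.23 points. rno-let-7a-5p made up 9.37%, 8.95% and 9.84% in the IR lungs, against 10.3%, 10.4% and 10.04% in the sham lungs. Here all IR shares were lower, with a mean difference of -0.86 points beside SDs of 0.444 points in IR and 0.183 points in sham.

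rno-miR-98-5p took 0.105%, 0.103% and 0.119% of the 5p reads in the IR lungs, against 0.122%, 0.128% and 0.156% in the sham lungs, again without overlap, a mean difference of -0.0262 points that was -0.0158 without sham replicate 3. The shares of the other 6 overlapped. How often shares separate in other miRNA families was not measured. In levels, 16.7% of all tested miRNAs had every IR library below every sham library, and 17.2% had every IR library above. rno-let-7f-5p had a mean share of 28.3% in IR and 28.6% in sham, and rno-let-7g-5p 14.1% and 14.3%. rno-let-7c-5p had 12.1% in IR and 12.6% in sham, and rno-let-7b-5p 5.23% and 5.29%. The shares of rno-let-7e-5p (1.53% in IR and 1.62% in sham) and rno-let-7d-5p (1.36% in IR and 1.53% in sham) were small.

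Ratios within a library were taken as well, for a few picked pairs of the 36 and not by a rule set beforehand. There were 2.89, 3.32 and 2.72 reads of rno-let-7i-5p for each read of rno-let-7a-5p in the IR lungs, against 2.49, 2.38 and 2.66 in the sham lungs. Against rno-let-7f-5p the ratio of rno-let-7i-5p was 0.955, 1.04 and 0.958 in the IR lungs and 0.927, 0.852 and 0.915 in the sham lungs. Both ratios were higher in every IR lung than in any sham lung. The ratio of rno-let-7f-5p to rno-let-7a-5p overlapped, at 3.03, 3.19 and 2.85 in the IR lungs and 2.69, 2.79 and 2.91 in the sham lungs. That of rno-let-7f-5p to rno-miR-98-5p was 270.0, 278 and 235 in the IR lungs and 227, 227 and 187 in the sham lungs, higher in every IR lung. These ratios follow from the shares, and since shares sum to a whole they are not separate observations. Each pair includes rno-let-7i-5p, rno-let-7a-5p or rno-miR-98-5p, whose shares already did not overlap, so a separation here adds no support. With 3 lungs against 3 an exact two-sided permutation test cannot give a p below 0.1, and no test was run on shares or ratios.

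**Figure D2:**
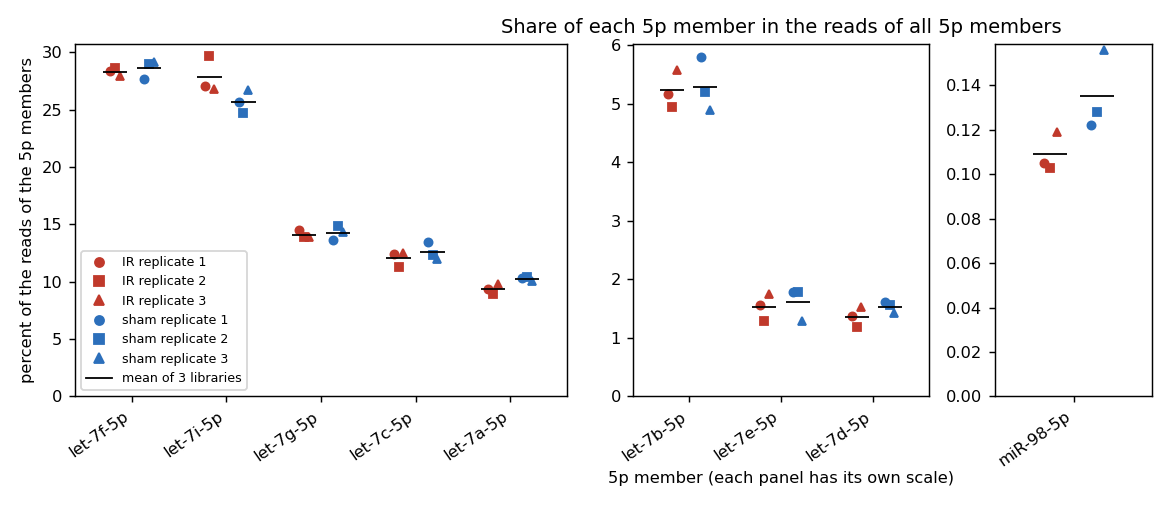
Percent of the reads of all 5p members that each 5p member took, IR libraries in red left of sham libraries in blue, with a line at each mean, in 3 panels with their own scales that start at 0. The IR points of rno-let-7i-5p lie above its sham points (26.8% to 29.7% and 24.7% to 26.7%), and those of rno-let-7a-5p and rno-miR-98-5p lie below theirs.

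The 3p strand is mostly degraded once the 5p strand is loaded into the silencing complex, and it was far rarer here with 1 exception. The 11 3p members had a summed level of 651, 596 and 701 normalized CPM in the IR lungs, against 1005, 807 and 808 in the sham lungs. Every IR lung was below every sham lung, at 0.744 times the sham mean (649 ± 52.7 in IR and 873 ± 114 in sham, SD, n = 3 each). Most of this sum was rno-let-7d-3p, so it says little of the other 3p strands.

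The exception is the let-7d hairpin, from which both strands were read in like numbers. It is printed because its arms carry the unusual result, with both mature strands in capitals, as in RefSeq.
Mirlet7d hairpin: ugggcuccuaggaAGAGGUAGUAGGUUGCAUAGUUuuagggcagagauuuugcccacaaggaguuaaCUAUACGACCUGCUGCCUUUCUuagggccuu

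rno-let-7d-3p had 512, 489 and 554 normalized CPM in the IR lungs, against 859, 664 and 662 in the sham lungs. All IR libraries lay below all sham libraries, with sham replicate 1 the highest. Its means were 518 ± 33.4 in IR and 728 ± 113 in sham (SD, n = 3 each), and the log2 fold change was -0.49 (SE 0.15, 95% interval -0.84 to -0.14). edgeR's quasi-likelihood test did not call it (unadjusted p = 0.0117, adjusted p = 0.0761). DESeq2 did, by a narrow margin (adjusted p = 0.0496, or 0.0511 with its default filtering), while calling 5.91% of its tested miRNAs as lower. Over all alternatives its adjusted p ranged up to 0.218, and without sham replicate 1 the log2 fold change was -0.37.

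The 3p strand took 40.1%, 40.8% and 41.1% of the reads of the let-7d hairpin in the IR lungs, against 47.2%, 43.8% and 41.3% in the sham lungs. The exact (Clopper-Pearson) 95% interval was 40.3% to 41.8% in IR replicate 3 and 40.5% to 42.1% in sham replicate 3. The intervals overlapped in 3 of 9 pairs of an IR and a sham lung, all with sham replicate 3. Overlap of intervals is not a test of a difference between lungs, and none was run. The means were 40.7 ± 0.487% in IR and 44.1 ± 2.98% in sham (SD, n = 3 each), a difference of -3.43 percentage points, or -1.88 without sham replicate 1.

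Of the other letters, let-7e had the next highest mean 3p share, and it was higher in IR. Its 3p share was 2.68%, 2.53% and 2.86% in the IR lungs, against 1.86%, 2.33% and 2.14% in the sham lungs. The IR shares were all higher (2.69 ± 0.167% in IR and 2.11 ± 0.240% in sham, SD, n = 3 each), although the exact intervals of an IR and a sham lung overlapped in 6 of 9 pairs, such as IR replicate 2 (1.98% to 3.18%) with every sham lung. rno-let-7e-3p itself had 23.8, 20.0 and 26.9 normalized CPM in the IR lungs, against 20.2, 23.2 and 18.7 in the sham lungs. These overlapped, with a log2 fold change of 0.19 (SE 0.21, edgeR adjusted p = 0.583).

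In the rest the 3p share never passed 2.26%, with genes of the same letter pooled. let-7a had a mean 3p share of 0.734% in IR and 0.776% in sham, let-7b 0.694% and 0.742%, and let-7i 0.258% and 0.261%. The lowest shares were those of let-7c, let-7f and let-7g, which lay between 0.00341% and 0.0536%. For let-7c the IR shares of 0.0329%, 0.00421% and 0.0207% were below the sham shares of 0.0407%, 0.0421% and 0.0438%, with overlapping exact intervals in 6 of 9 pairs. The 3p share of miR-98 rested on 2 to 7 reads per library and overlapped between groups. How often the 3p share of other hairpins separates the groups was not measured, so the separations of let-7c, let-7d and let-7e have no background beside them.

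**Figure D3:**
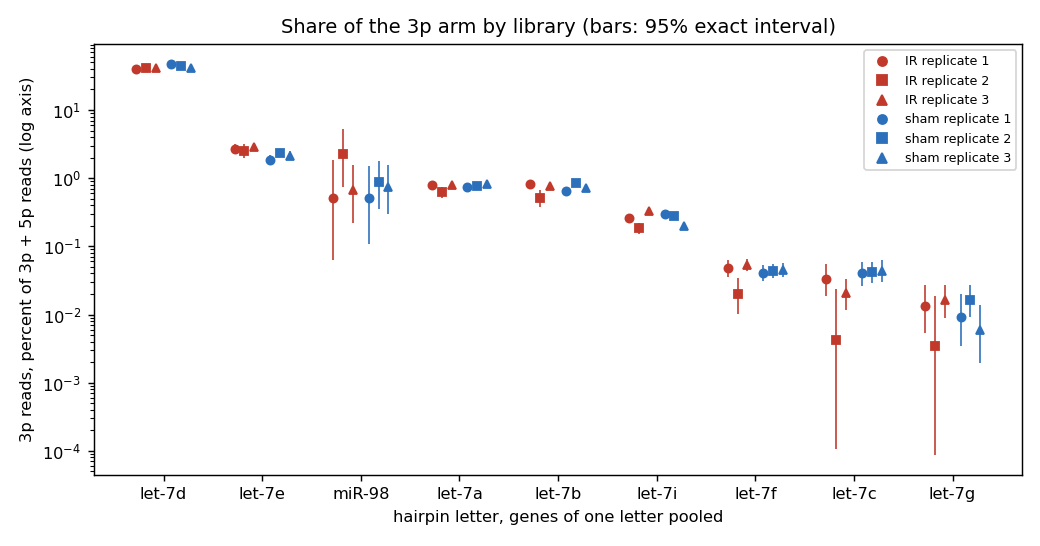
Reads of the 3p strand as percent of all reads of a hairpin letter (log axis), IR libraries in red left of sham libraries in blue, with exact 95% intervals as bars. let-7d stands apart at 40.1% to 47.2%, let-7e follows at 1.86% to 2.86%, and the bars of miR-98, let-7c and let-7g are long because few reads stand behind them.

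In all, 8 of the 11 3p members passed the filter, and 0 were called by edgeR, beside 10.5% of all tested miRNAs. At an unadjusted edgeR p under 0.05 there were 2 of the 8, rno-let-7d-3p and rno-let-7c-1-3p, beside 26.3% of all tested miRNAs in either direction. Both were lower in IR, as were 12.2% of the tested miRNAs at that level. rno-let-7c-1-3p had 15, 1 and 16 reads in the IR lungs, against 26, 32 and 31 in the sham lungs. In normalized CPM these are 2.26, 0.285 and 1.35 in IR and 3.28, 2.84 and 3.47 in sham, with no overlap, and IR replicate 2 is under the level of 3 reads. Its log2 fold change was -1.17 (SE 0.49, unadjusted p = 0.0432, edgeR adjusted p = 0.172).

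rno-let-7a-1-3p had 40.4, 33.1 and 39.5 normalized CPM in the IR lungs, against 44.0, 43.5 and 53.8 in the sham lungs. It too was lower in every IR lung, with a log2 fold change of -0.32 (SE 0.19, edgeR adjusted p = 0.318). RefSeq gives the 3p strand of a let-7c gene, a name that the table does not list, the same bases as rno-let-7a-1-3p, so its reads may hold both. The remaining tested 3p members overlapped between groups. Their log2 fold changes were -0.32 for rno-let-7f-1-3p, -0.21 for rno-let-7b-3p, -0.016 for rno-let-7i-3p and 0.06 for rno-let-7f-2-3p, with edgeR adjusted p-values of 0.583 to 0.986. The signs of rno-let-7i-3p and rno-let-7f-2-3p turn under other settings. The members under the filter had 1 to 16 reads in any library, summing over the groups to 22 in IR and 33 in sham for rno-let-7a-2-3p, 22 in IR and 26 in sham for rno-let-7g-3p, and 12 in IR and 17 in sham for rno-miR-98-3p.

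**Figure D4:**
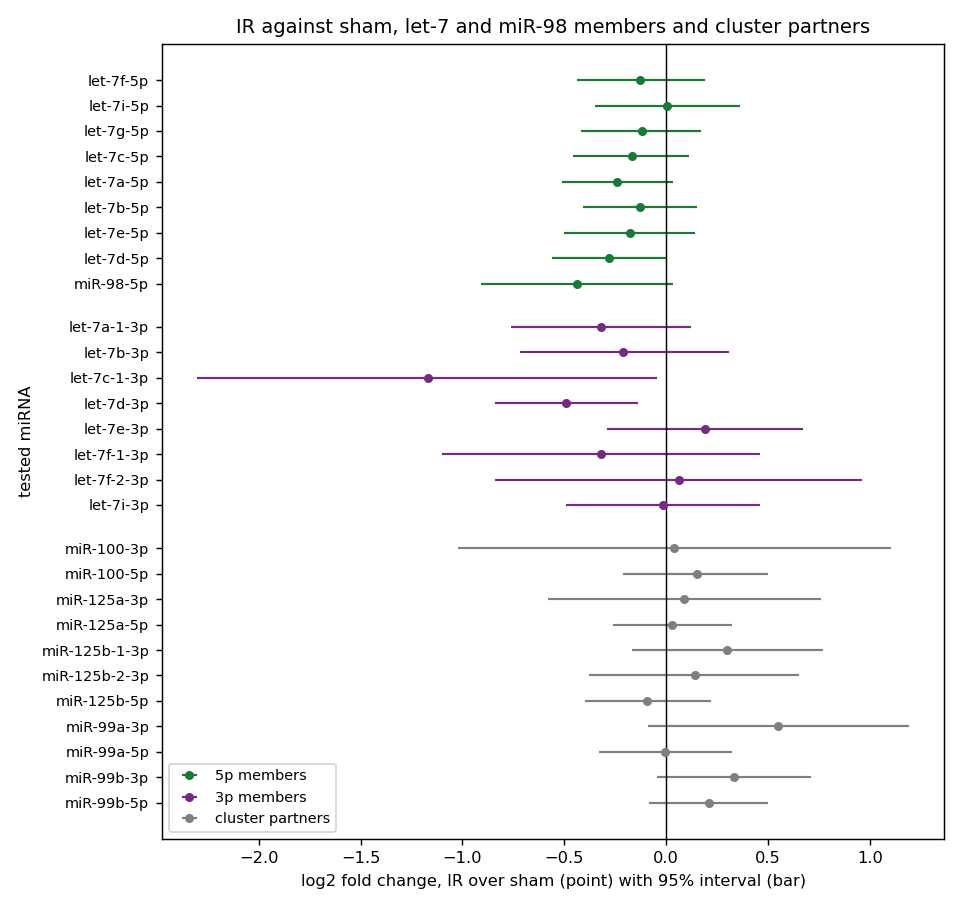
Log2 fold change of IR over sham with its 95% interval for the 9 5p members (green), the 8 tested 3p members (purple) and 11 neighbouring miRNAs (grey). The intervals of rno-let-7d-3p (-0.84 to -0.14) and rno-let-7c-1-3p lie below zero before adjustment, and the widest is that of rno-let-7c-1-3p.

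The table gives read numbers close to those of some members under other names as well. The names rno-miR-3596a to rno-miR-3596d belong to RNAs on the opposite strand of let-7 genes, and their sequences are given because each is the reverse complement of a 5p member.
rno-miR-3596a: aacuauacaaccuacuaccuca
rno-miR-3596b: aacuaugcaaccuacuaccu
rno-miR-3596c: acuauacaaccuccuaccuca
rno-miR-3596d: cuauacaaucuacuaccuca

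rno-miR-3596a is the complement of bases 1 to 22 of rno-let-7a-5p. It had 34342, 18804 and 60936 reads in the IR lungs and 48773, 64251 and 59484 in the sham lungs, which differ from the reads of rno-let-7a-5p by at most 2. rno-miR-3596b covers bases 3 to 22 of rno-let-7d-5p, and its reads differed from those of that member by at most 1 in any library. In every library both names thus match their let-7 member almost to the read.

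rno-miR-3596c, the complement of bases 1 to 21 of rno-let-7e-5p, held 98.8% to 99.5% of that member's reads. rno-miR-3596d, the complement of bases 1 to 20 of rno-let-7f-5p, held 89.8% to 94.8%, with 6107 to 13178 reads fewer. The 4 names together took 2.06% to 2.50% of the listed reads, which therefore stand in the library totals beside those of the members. Their log2 fold changes were -0.24, -0.28, -0.19 and -0.14, beside -0.24, -0.28, -0.18 and -0.13 for the matching members. Whether the authors' counting used strand is not stated, so reads of a let-7 member and of its opposite-strand name cannot be told apart. With these 4 names left out, a setting chosen after seeing the data, 0 of the 9 5p members were called and their median log2 fold change was -0.11.

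**Figure D5:**
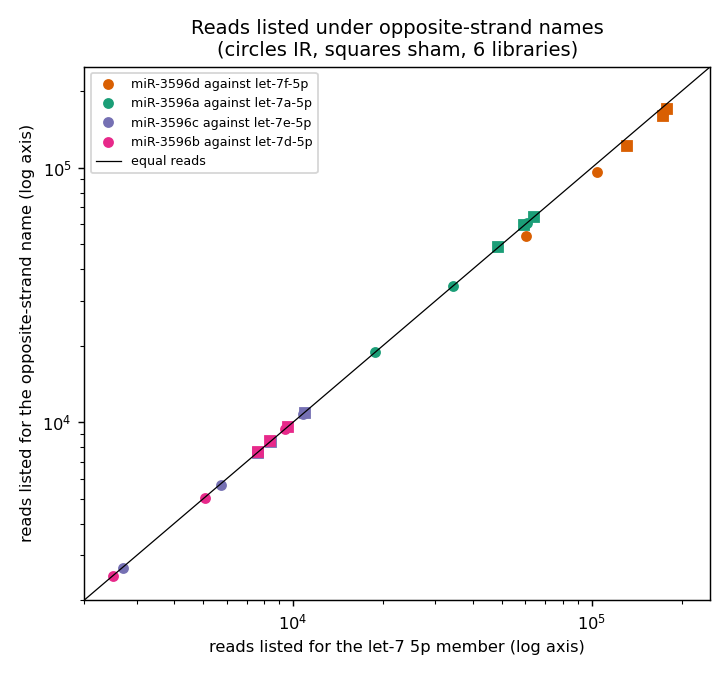
Reads of the 4 opposite-strand names against reads of the matching 5p member in the 6 libraries (both axes log), circles for IR and squares for sham, with a line where both are equal. Points of rno-miR-3596a, rno-miR-3596b and rno-miR-3596c lie on the line, and those of rno-miR-3596d lie just under it, at 89.8% to 94.8%.

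The let-7e, let-7a and let-7c genes with neighbours share their loci with miR-99b and miR-125a, with miR-100 and miR-125b, and with miR-99a and miR-125b, families that carry other seeds and are known in mammals for effects on cell growth and differentiation. All 11 of their rows were tested and 0 were called by edgeR, beside 10.5% of all tested miRNAs, with 0 at an unadjusted p under 0.05, beside 26.3%. The median log2 fold change was 0.14 over the 11 rows and 0.029 over their 5 5p strands, of which 2 were below zero. The summed level of the 5p strands was 44395, 37621 and 42103 normalized CPM in the IR lungs, against 40029, 39389 and 40080.3 in the sham lungs, which overlap. Among these strands, rno-miR-125b-5p also has a reverse-complementary name in the list, rno-miR-3588. The mean reads of the 2 names over the 6 libraries were near equal, at 39611.5 and 38711.3.

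Beside rno-let-7e-5p, with its mean of 849 ± 72.7 normalized CPM in IR and 965 ± 105 in sham, rno-miR-99b-5p had 10399 ± 1040.2 in IR and 9014 ± 352 in sham (SD, n = 3 each). rno-miR-125a-5p had 3312 ± 317 normalized CPM in IR and 3245 ± 177 in sham. The members of that locus thus differed widely in level, and all their log2 fold changes had intervals that include zero. All IR libraries lay above all sham libraries for 3 of the 11 rows, as for 17.2% of all tested miRNAs. These are rno-miR-99a-3p (log2 fold change 0.55, edgeR adjusted p = 0.252), rno-miR-99b-3p (0.33, adjusted p = 0.247) and rno-miR-125b-1-3p (0.30, adjusted p = 0.375). Without IR replicate 1 the log2 fold change was 0.19 for rno-miR-99b-3p and 0.11 for rno-miR-125b-1-3p.

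Outside the family, the 5 tested miRNAs whose pattern over the 6 libraries was most like that of the summed 5p level were rno-miR-3596d, rno-miR-221-3p, rno-miR-503-5p, rno-miR-3596a and rno-miR-28-3p. Likeness is the root mean square difference of the centred log2 levels. It was 0.036, 0.061, 0.073, 0.076 and 0.079 in that order, beside a median of 0.31 over the 401 tested miRNAs outside the family. rno-miR-3596d and rno-miR-3596a are the opposite-strand names whose reads follow those of rno-let-7f-5p and rno-let-7a-5p. rno-miR-221-3p had 390.0, 426 and 365 normalized CPM in the IR lungs, against 444, 419 and 519.5 in the sham lungs. Its highest value, as for rno-let-7f-5p, was in sham replicate 3, where the lowest TMM factor (0.8665) raises all levels. The likeness measure is also small for any miRNA with steady levels.

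Summed marker miRNAs of several cell types did not overlap between the groups, and no test was run on these sums. Among single tested miRNAs, all IR libraries lay below all sham libraries in 16.7% and above in 17.2%. The 9 rows of the epithelial miR-200 family summed to 19074 to 19616 normalized CPM in IR and 13191 to 16187 in sham. The 4 rows of miR-199a and miR-214, typical of mesenchyme, summed to 2332 to 2485 normalized CPM in IR and 3224 to 3687 in sham. The 4 rows of miR-223 and miR-142 of myeloid cells and leukocytes summed to 1315 to 1645 normalized CPM in IR and 1812 to 3046 in sham, and the 2 rows of miR-150 of lymphocytes to 703 to 947 in IR and 1386 to 1521 in sham. Endothelial (miR-126a), smooth muscle (miR-143 and miR-145) and erythroid (miR-451, miR-144 and miR-486) sums overlapped between groups. Among all these lists 0 rows were at 0 in every library. Some members also had all IR libraries below sham, as the mesenchymal and leukocyte sums did. A shared side of this kind does not show that they moved together from lung to lung. The part of cell make-up in those differences was not tested.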

How the data were processed

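Small RNA libraries of 3 IR and 3 sham rat lungs were analysed, grouped by sample title. The authors deposited whole read counts for each listed name, with a TPM beside each count that equals the count per 1000000 listed reads, with no term for length. The submitters' processing notes name Bowtie. Build, annotation, counter, strand, mismatch and multiple-match rules are unknown here. Counts were filtered by filterByExpr (minimum count 10, minimum total 15), scaled by TMM (0.8665 to 1.064) and tested with edgeR 4.0.16 in R 4.3.3 without a replicate block, with Benjamini-Hochberg adjustment over all 418 tested miRNAs. The SE is the log2 fold change over the square root of F, and the 95% interval uses t with the fit's degrees of freedom. The fit was tested on simulated data with the real mean levels and library sizes. It called 34 of 60 miRNAs with a 2-fold change (56.7%), 63 of 65 with a 4-fold change and 1 of 298 unchanged ones. Alternatives were RLE scaling, total counts, TMM without the members, no filter, 10 reads in every library, DESeq2 1.42.0, limma-voom (limma 3.58.1), the replicate block and leaving out each library. Leaving out the opposite-strand names, and DESeq2's default filtering, were added after seeing the data.

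Members and lists were chosen with earlier results of these data known. All 20 members are accounted for, with the tested 3p members named singly, and the neighbours miR-99a, miR-99b, miR-100, miR-125a and miR-125b could be named. Names with the same seed, and the 5 miRNAs most like the summed 5p level, were named by rule. The 4 opposite-strand names, and the miR-21-5p share, were singled out after their values were seen. The ratios between 5p members were not planned. RefSeq (GRCr8) sequences matched 19 of 20 members by name, and rno-let-7c-1-3p was not matched. Neighbouring genes are RefSeq's, and no coordinates are used.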

Additional observations from a re-analysis of the deposited data

How the results depend on the processing

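No 5p member or neighbouring miRNA was called by any of the 16 alternatives, and the only 3p call was 1 in DESeq2 (rno-let-7d-3p, log2 fold change -0.51). The median log2 fold change of the 5p members ranged from -0.23 to -0.11, and the ratio of their summed level from 0.887 to 0.986, leaving out single libraries included. The summed ratio was 0.926 in the main setting. Calls over all tested miRNAs were 44 in the main setting, 75 in DESeq2 (69 with its default filtering), 26 with 10 reads in every library, 0 with the replicate block, and 2 to 57 with 1 library left out.

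Of the members' log2 fold changes under alternatives, 251 kept direction and side of the threshold, 1 passed the threshold (rno-let-7d-3p in DESeq2), and 17 changed sign, all of members between -0.016 and 0.06 in the main setting. rno-let-7i-5p was -0.010 in DESeq2 with either filtering, and -0.11 to 0.12 with 1 library left out. rno-let-7f-2-3p was -0.023 with the replicate block and -0.19 to 0.28 with 1 library left out. rno-let-7i-3p was 0.0092 with total counts, 0.023 with TMM without the members, 0.011 without the filter, 0.032 with 10 reads in every library, 0.004 in limma-voom, 0.041 without the opposite-strand names and -0.11 to 0.083 with 1 library left out. The cause of these changes was not tested.

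Same-numbered IR and sham libraries deviated in opposite ways (r = -0.234, -0.387 and -0.183 across miRNAs), none correlated best with its own number, and nothing in the labels pairs the rats. With the replicate block the lowest adjusted p over all miRNAs was 0.0579, 84 had an unadjusted p under 0.05, and the median of the 5p members was -0.17. Depth limits the 3p members most, several of which rest on fewer than 10 reads in a library.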

Other observations

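Near-equal reads under opposite-strand names were not limited to let-7. Of the listed names with a RefSeq sequence, 41 pairs were reverse-complementary, and in 38 of them at least 1 name averaged 5 reads or more. In 26 of these 38 the reads of both names were near equal, within 5% or 2 reads in every library.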
